A study of Mus musculus with 2 samples.

Results

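The injury-associated lipid macrophage genes are 10 genes that mark lipid-laden macrophages of injured tissue: Spp1, Trem2, Gpnmb, Apoe, Lgals3, Cd9, Cd63, Fabp5, Lpl and Plin2. They were chosen by name with earlier results of these data known, so their counts beside the shares of all genes are descriptions. All 10 were among the 20299 gene names counted. Their unique molecular identifiers (UMIs, each standing for 1 captured transcript) were summed by cluster and library over 3 macrophage clusters named R1, M2-like R2 and Other R2. The level of a gene is given in CPM, its UMIs after scaling all UMIs of the same cluster and library to a sum of 1000000. B, NK, EM-like CD4+ T, EM-like CD8+ T and non-EM-like CD8+ T cells were pooled as 5 lymphoid clusters under the authors' names. They were taken as the background for free RNA, the transcripts that leak from broken cells into every droplet. In WT the lymphoid pool was uneven. B held 2352 of its 2453 Apoe UMIs, and NK held 873 of its 1186 Cd9 and 152 of its 171 Spp1 UMIs. The Vsir-/- pool was uneven too, with 1580 of its 3565 Spp1 and 224 of its 623 Cd63 UMIs in B. How much of these was free RNA was not tested. Non-EM-like CD4+ T cells were kept out of this pool, because 218 of the 349 Vsir-/- cells under that name had no UMI of Ptprc, the gene of CD45, or of the T cell receptor complex.

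The cells came from kidneys of C57BL/6 mice aged 8 weeks, either WT or Vsir-/-, the latter lacking the gene of the checkpoint receptor VISTA. All mice of both genotypes had nephrotoxic nephritis, for which they received 200 μg of sheep IgG with complete Freund's adjuvant and, 4 days later, sheep serum against the glomerulus. No mice without nephritis were analysed, and how many mice each library pooled was not given. Each genotype had 1 library, the WT one labelled as CD45+ cells sorted by flow cytometry and the Vsir-/- one as holding all kinds of kidney cells. The study's methods describe a CD45+ sort without setting the genotypes apart, so the labels and the methods differ on the Vsir-/- library, and as labelled genotype and sort cannot be told apart. With 1 library a genotype there was no test, and each interval given is exact at 95% and covers counting error only.

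The WT library held 5470 cells, 760 of them in the macrophage clusters and 2908 in the lymphoid clusters, and the Vsir-/- library held 1844, 536 and 477, from 32799550 and 18601189 UMIs in all. Vsir itself was measured at 99.1 to 275 CPM in the 3 WT macrophage clusters and as 1 UMI in all in those of Vsir-/-. A complement C1q transcript was found in all R1 cells of both libraries, and Lyz2, Csf1r, Fcgr1 or Cd68 in 95.2% to 97.0% of the cells of both R2 clusters, but 43 of the 88 Vsir-/- cells of the B cluster had no UMI of Cd79a, Cd79b or Ms4a1. The libraries also differed in sex-linked transcripts (Xist 0 and 16405 UMIs, Ddx3y 1779 and 0 UMIs in WT and Vsir-/-) and in the gene names they were counted under (Aes 13241 and 0 UMIs, its later name Tle5 0 and 7784 UMIs). All 10 members had UMIs in both libraries. In the macrophage clusters, 28 genes of kidney tubule cells summed to 9.37 to 53.2 CPM in WT and 1605 to 2702 CPM in Vsir-/-, whereas the T cell receptor complex genes summed to 311 to 574 CPM in WT and 6.47 to 40.0 CPM in Vsir-/-. The part of these differences in the results below was not tested.

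Macrophages that clear dying cells take up membrane lipid, store it in droplets and hand it on to lipoproteins. TREM2 is a surface receptor that binds lipids and lipoproteins and signals through the adaptor TYROBP, and it is required for the full lipid-associated state in several tissues. Osteopontin, the product of Spp1, is a secreted ligand of integrins and CD44 that is also made by injured kidney tubules, which makes free tubule RNA a concern for macrophage data from the kidney.

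The upstream regions of 3 members are shown because the results turn on Trem2, which was highest in R1 and M2-like R2, and on Spp1, which was as high in lymphoid cells of Vsir-/-, with Plin2 as a lipid droplet gene. They are the 250 bases before a RefSeq start in GRCm38.p6, at chr17:48346151-48346400 on the plus strand for Trem2, chr5:104434861-104435110 on the plus strand for Spp1 and chr4:86670060-86670309 on the minus strand for Plin2. Capitals mark the letters GAGGAA, the core bound by the myeloid factor PU.1, and AGGTCA, the half-site of nuclear receptors, each searched on both strands.
Trem2: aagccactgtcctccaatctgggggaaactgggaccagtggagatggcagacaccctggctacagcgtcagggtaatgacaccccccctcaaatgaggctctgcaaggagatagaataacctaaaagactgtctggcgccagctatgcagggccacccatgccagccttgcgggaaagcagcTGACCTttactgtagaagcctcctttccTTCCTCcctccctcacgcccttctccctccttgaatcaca
Spp1: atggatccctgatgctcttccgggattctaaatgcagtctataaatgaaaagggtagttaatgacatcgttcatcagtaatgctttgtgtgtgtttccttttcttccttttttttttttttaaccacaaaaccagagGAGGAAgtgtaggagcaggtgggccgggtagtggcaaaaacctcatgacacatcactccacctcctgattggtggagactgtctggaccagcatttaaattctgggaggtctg
Plin2: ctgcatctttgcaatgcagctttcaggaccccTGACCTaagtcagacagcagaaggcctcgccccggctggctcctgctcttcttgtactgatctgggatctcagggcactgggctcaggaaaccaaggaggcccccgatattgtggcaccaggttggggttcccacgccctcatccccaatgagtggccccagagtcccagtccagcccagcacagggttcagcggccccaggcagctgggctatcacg
The PU.1 core was found in 5 of the 11 upstream regions of members (of Trem2, Spp1, Apoe and Cd63) and in 23.3% of all 32851 upstream regions. The half-site was found in 2 of the 11 (of Trem2 and Plin2) and in 14.0% of all regions. Another Spp1 region, not shown, held neither. A RefSeq region was matched for 8 of the 10 members, Fabp5 and Lpl being the others. Such a match is a description of the letters and not a binding site.

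To ask how the genes differed between the genotypes, levels in Vsir-/- were divided by those in WT within each macrophage cluster, among genes with at least 20 UMIs in both libraries together. In M2-like R2, 7 of the 9 members that passed this filter were at least 2-fold higher in Vsir-/- (Spp1, Trem2, Apoe, Cd9, Cd63, Fabp5 and Lpl), compared with 8.11% of all genes. In R1, 5 of 9 were at least 2-fold higher (Spp1, Trem2, Cd9, Cd63 and Fabp5), against 13.6% of all genes. In Other R2, 3 of 8 were (Spp1, Cd63 and Lpl), against 6.71% of all genes. Spp1 (4 UMIs), Trem2 (18) and Fabp5 (10) in R1 and Spp1 (1) in Other R2 were under 20 UMIs in WT. These passed the filter only through their Vsir-/- UMIs. No member that passed was at least 2-fold lower in any of the 3 clusters, where 8.78% (R1), 7.61% (M2-like R2) and 9.52% (Other R2) of all genes were. Trem2 in Other R2 did not pass, at 9.37 CPM in WT and 3.88 CPM in Vsir-/- from 12 and 3 UMIs. The median log2 ratio of the members was 1.04 in R1, 1.28 in M2-like R2 and 0.72 in Other R2, and the median of all genes was -0.01, 0.01 and -0.06. Restricting the background to names with UMIs in both libraries lowered the shares of higher genes to 10.3%, 6.41% and 5.27%. The members were also higher in the 5 lymphoid clusters of the Vsir-/- library, with a median log2 ratio of 1.29 beside 0.13 for all genes there, so the higher levels were not particular to macrophages.

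**Figure D1:**
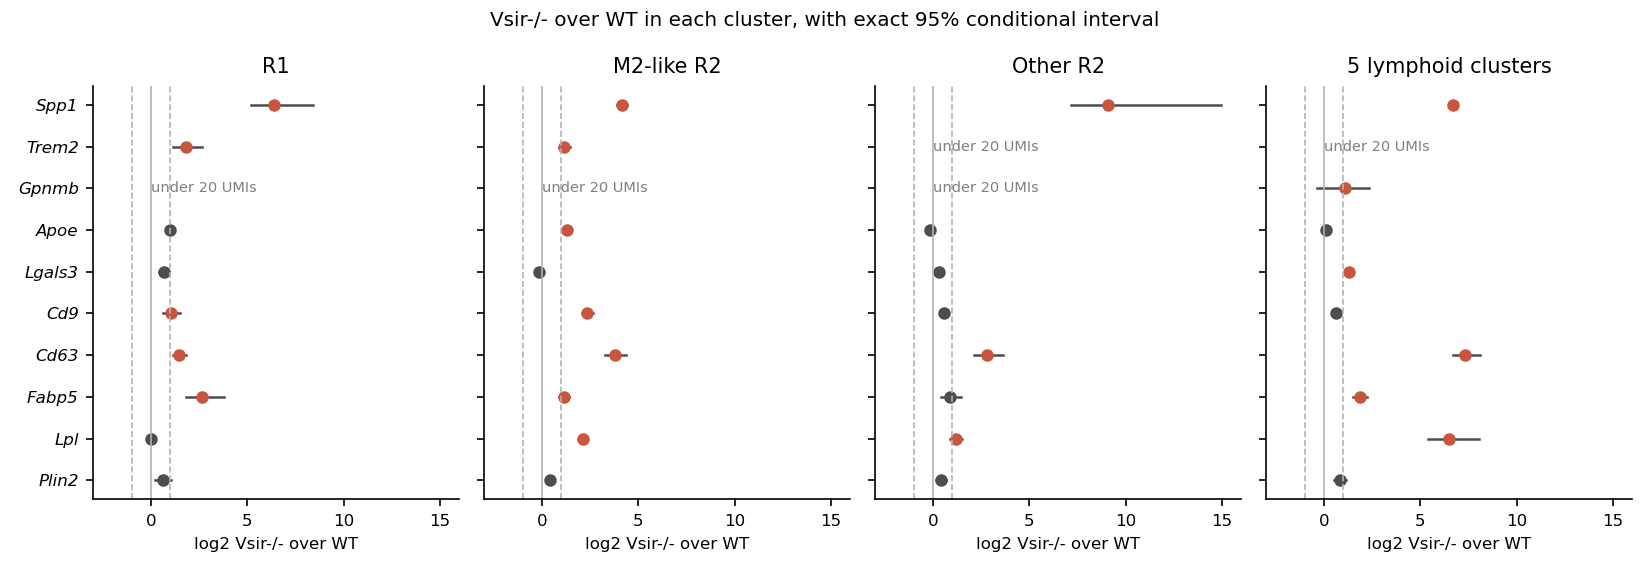
Log2 ratio of the level in Vsir-/- over WT (x axis) for each gene in R1, M2-like R2, Other R2 and the 5 pooled lymphoid clusters, with 1 library a genotype. Points are ratios, lines their exact 95% intervals for counting error, dashed lines mark a 2-fold difference and orange points lie at or past 2-fold higher. Spp1 and Cd63 lay far to the right in lymphoid cells too (6.69 and 7.31), whereas Apoe was at 0.13 there and at 1.28 in M2-like R2.

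Setting the macrophages of each library against its own lymphoid clusters divided the members. In WT, 7 of the 10 members were at least 4-fold higher in the pooled macrophages (Trem2, Apoe, Lgals3, Cd63, Fabp5, Lpl and Plin2), a difference that 8.72% of all genes reached. In Vsir-/-, 5 did (Trem2, Apoe, Lgals3, Lpl and Plin2), beside 6.25% of all genes. Trem2 was 127-fold higher than in lymphoid cells in WT and 52.7-fold higher in Vsir-/-, and Lpl 257-fold and 8.45-fold. At the other end, Spp1 in Vsir-/- macrophages was 0.50-fold of its lymphoid level (interval 0.474 to 0.527), and Cd63 was 1.09-fold (0.982 to 1.21). Counting only lymphoid cells with a transcript of their own lineage, these became 0.776-fold for Spp1 and 1.39-fold for Cd63.

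**Figure D2:**
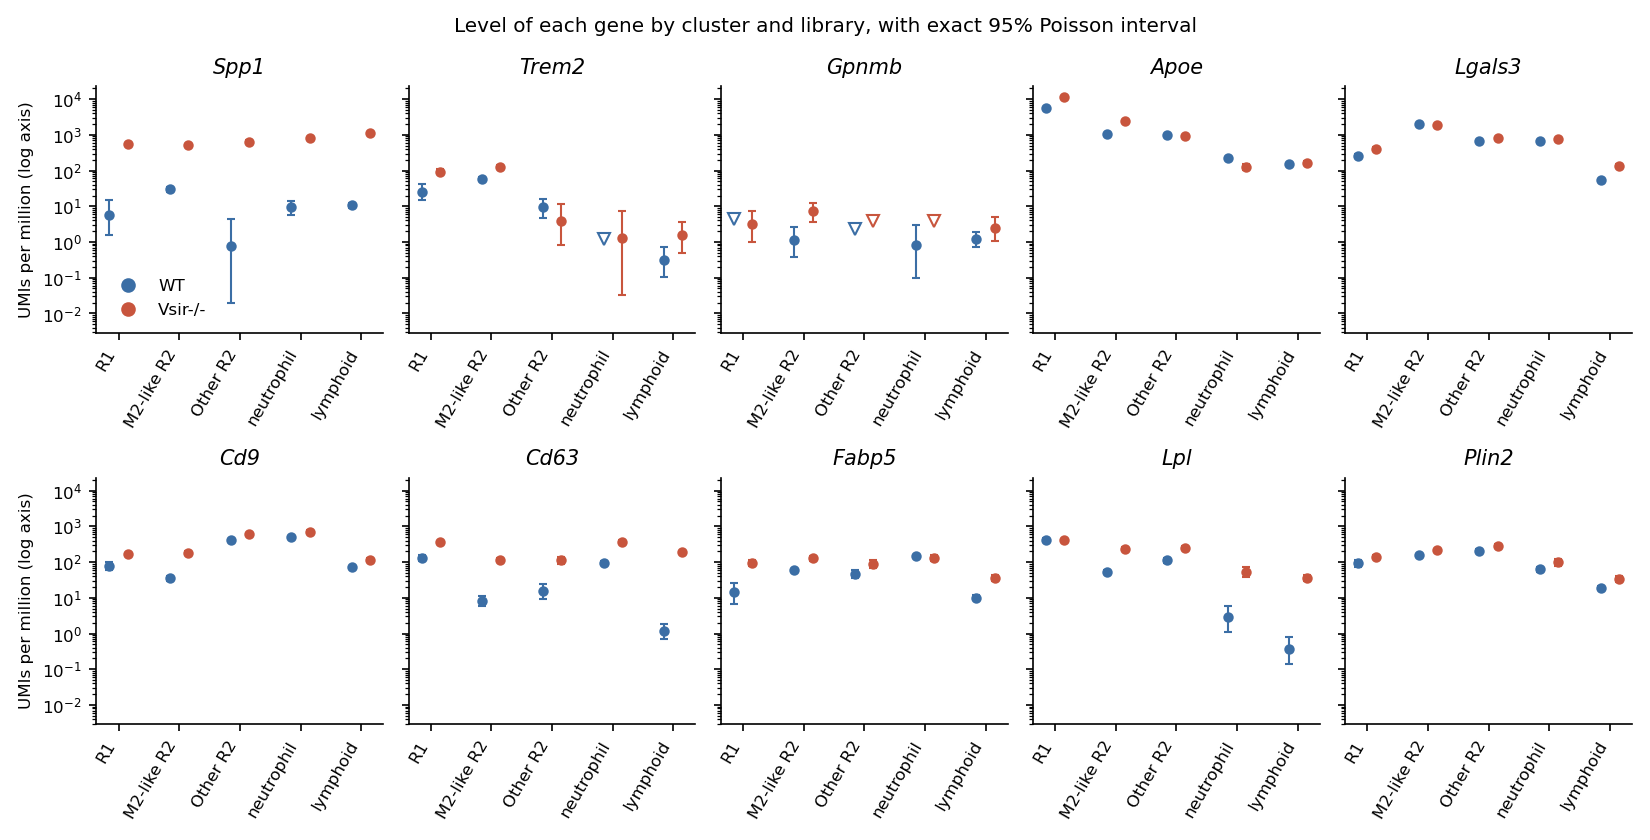
Level of each gene in CPM (log axis) in the 3 macrophage clusters, the neutrophils and the 5 pooled lymphoid clusters of the WT (blue) and Vsir-/- (orange) libraries. Points are sums over all cells of a cluster with exact 95% Poisson intervals, and open triangles mark the level that 3 UMIs would give where none was counted. Trem2 and Apoe fall from macrophages to lymphoid cells in both libraries, while Spp1 in Vsir-/- stays between 530 and 1108 CPM in all 5 columns.

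Spp1, the ligand, was the member with the largest log2 ratio between the libraries in each macrophage cluster. Its level in WT was 5.76 CPM in R1, 29.8 CPM in M2-like R2 and 0.781 CPM in Other R2, from 4, 131 and 1 UMIs. A single WT cell held 93 of the 131 UMIs in M2-like R2, and that cell also held 31 Lpl UMIs and 2 UMIs of the tubule list. In Vsir-/-, Spp1 stood at 539, 530 and 637 CPM in the same clusters, a log2 ratio of 6.38 (5.19 to 8.43), 4.15 (3.89 to 4.43) and 9.09 (7.19 to 15.0).

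The higher Spp1 of the Vsir-/- library was shared by cells that are not macrophages. Neutrophils went from 9.27 to 798 CPM and the lymphoid pool from 10.7 to 1108 CPM, with a log2 ratio of 6.69 (6.47 to 6.92) in the latter. The lymphoid clusters of Vsir-/- ranged from 470 to 3012 CPM, so that every macrophage cluster fell within their range. B was the highest of them and EM-like CD4+ T the next, at 849 CPM. Within that library Spp1 kept to 199 to 330 UMIs per 1000 UMIs of the tubule list in macrophages, 114 to 452 in the lymphoid clusters and 199 in neutrophils. The list left out Napsa and Ass1, since WT macrophages carried both (716 and 81.5 CPM in M2-like R2). Scaling the lymphoid level to the tubule list of each macrophage cluster gave 701, 417 and 630 CPM in R1, M2-like R2 and Other R2. That is 130%, 78.6% and 98.9% of the Spp1 level measured. Lymphoid cells with a transcript of their own lineage had 189 Spp1 UMIs per 1000 tubule UMIs, compared with 260 in the whole pool. Scaling from them would lower these levels. How much of the macrophage Spp1 was free RNA was not tested. Across 29 sums of a cluster and a library the 5 genes most like Spp1 of 11262 were Gpx3, Wfdc2, Fxyd2, Spink1 and Timp3, with Pearson's r of 0.97 to 0.98, a description in which the difference between the libraries is shared by all points. Gpx3, Wfdc2 and Fxyd2 are genes of the tubule epithelium.

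**Figure D3:**
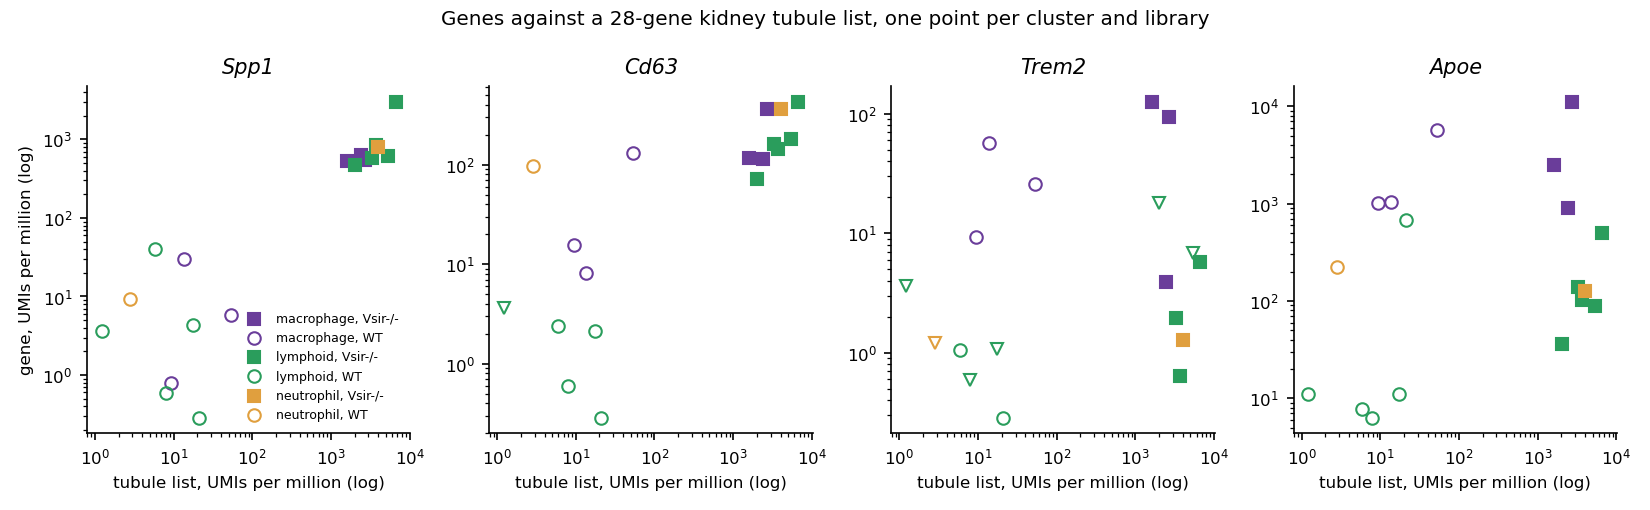
Level of Spp1, Cd63, Trem2 and Apoe (y axis, CPM, log) against the summed level of 28 kidney tubule genes (x axis, CPM, log), with 1 point for each cluster and library. Filled squares are Vsir-/- clusters and open circles WT clusters, in purple for macrophages, green for lymphoid cells and yellow for neutrophils, and triangles mark the level of 3 UMIs where none was counted. Spp1 and Cd63 of all Vsir-/- cell types lie together at the right, whereas Trem2 and Apoe of R1 and M2-like R2 lie above the lymphoid cells of the same tubule level.

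The receptors that osteopontin engages were mostly within 2-fold, as were most of all genes. Of 8 genes for CD44 and integrin chains, 7 passed the filter in each cluster. None was 2-fold higher, where 13.6% (R1), 8.11% (M2-like R2) and 6.71% (Other R2) of all genes were. Itga4 in R1 (177 and 68.1 CPM in WT and Vsir-/-, log2 ratio -1.38, -1.76 to -0.99) was the only one 2-fold lower. In the same order, 8.78%, 7.61% and 9.52% of all genes were lower. Itga4 is an integrin chain that lymphocytes carry at high levels (328 CPM in the WT lymphoid clusters). What part lymphoid RNA had in the R1 value was not tested.

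Trem2, the lipid receptor, was highest in M2-like R2 and then R1 in both libraries, and both stood above every lymphoid cluster of their library. In M2-like R2 it measured 56.5 CPM in WT and 126 CPM in Vsir-/- (log2 ratio 1.16, 0.89 to 1.43). In R1 it measured 25.9 CPM from 18 UMIs in WT, of which 10 lay in 1 cell, and 93.7 CPM from 150 UMIs in Vsir-/- (1.82, 1.15 to 2.65). Other R2 had 12 and 3 UMIs, and the lymphoid pool 5 and 5 UMIs, or 0.314 and 1.55 CPM. In Vsir-/-, Other R2 at 3.88 CPM lay within the range of the lymphoid clusters, which reached 5.72 CPM in B, from 3 UMIs.

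The share of cells with a Trem2 UMI was also higher in Vsir-/-. It was 30.5% (26.3 to 34.9) of M2-like R2 cells in WT and 42.3% (34.7 to 50.1) in Vsir-/-, and 6.90% (3.02 to 13.1) and 30.0% (24.2 to 36.2) of R1 cells. After thinning every cell to 1000 UMIs the shares were 5.62% and 12.6% in M2-like R2 and 1.83% and 8.02% in R1. The lymphoid cells, with a median of 4532 and 5623 UMIs, had a Trem2 UMI in 0.172% and 0.839%, and M2-like R2 cells had a median of 9699 and 10074 UMIs. In WT M2-like R2, 48.7% of the cells also held a T cell receptor complex UMI, compared with 8.33% in Vsir-/-, and without such cells and those with Cd79a the log2 ratio of Trem2 was 0.87, short of 2-fold.

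None of 6 genes listed for TREM2 signaling (the adaptors Tyrobp and Hcst, Syk, Plcg2, Inpp5d and Ms4a7) was 2-fold higher in any macrophage cluster. All 6 passed the filter in R1 and M2-like R2, and 5 in Other R2. Of all genes 13.6%, 8.11% and 6.71% were higher there, so 0 among so few genes was near those shares. The list had a median log2 ratio of -0.30, -0.25 and -0.39 in R1, M2-like R2 and Other R2. Tyrobp measured 3215 and 2841 CPM in M2-like R2. Hcst, an adaptor that NK and T cells use, was 2-fold lower in R1 (log2 ratio -1.28, -1.86 to -0.71), as were 8.78% of all genes. Among the 5 genes most like Trem2 over the 29 sums were Msr1, Guca1a, Plxna4os1 and Mcub (r 0.81 to 0.89). Msr1 encodes a scavenger receptor of macrophages.

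Apoe encodes an apolipoprotein that macrophages secrete to carry lipid away. In both libraries each macrophage cluster stood above every lymphoid cluster for Apoe. In R1 it measured 5665 CPM in WT and 11126 CPM in Vsir-/- (log2 ratio 0.97, 0.92 to 1.02), just inside 2-fold. In M2-like R2 it measured 1033 and 2502 CPM (1.28, 1.22 to 1.34), and in Other R2 1009 and 901 CPM (-0.16, -0.30 to -0.03). R1 stood above the R2 clusters in each library, while the R2 clusters of WT did not differ beyond counting error (0.03, -0.06 to 0.12). The lymphoid pool had 154 and 168 CPM, and the highest lymphoid cluster was B in WT at 675 CPM. B stood at 499 CPM in Vsir-/-. The NK cluster went from 7.72 to 138 CPM, EM-like CD4+ T cells from 11.1 to 103 CPM and non-EM-like CD8+ T cells from 6.32 to 88.2 CPM.

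The difference of Apoe in M2-like R2 went with the share of cells carrying C1qa, a complement gene carried by nearly all R1 cells of both libraries. C1qa was found in 12 of 456 cells (2.63%) of WT M2-like R2 and in 45 of 168 (26.8%) in Vsir-/-, or 1.22% and 20.1% after thinning, while the lymphoid clusters had it in 1.13% and 10.3%, or 0.420% and 2.18% after thinning. Among M2-like R2 cells without C1qa, Apoe stood at 991 CPM (WT) and 1137 CPM (Vsir-/-), a log2 ratio of 0.20. Among those with it, Apoe was 2020 and 6724 CPM, so cells with C1qa were both more common and richer in Apoe in Vsir-/-. Trem2 outside the C1qa cells was 55.5 and 102 CPM, Cd9 35.1 and 113 CPM, and Lpl 50.1 and 202 CPM, a log2 ratio of 0.88 for Trem2 and more than 2-fold for Cd9 and Lpl. In the 21 Vsir-/- cells of M2-like R2 with a UMI of Arg1, an enzyme of alternatively activated macrophages, Trem2 reached 351 CPM, Cd9 801 CPM, Fabp5 284 CPM and Apoe 8063 CPM. The 147 cells without Arg1 had 93.6, 90.8, 104 and 1701 CPM of these genes. Cells with and without Arg1 had 1090 and 449 CPM of Spp1 and 213 and 101 CPM of Cd63. Lpl (299 and 224 CPM) and Plin2 (242 and 206 CPM) differed less. Lgals3 was lower with Arg1, at 991 and 1954 CPM, as was Gpnmb, at 4.74 and 7.51 CPM from 1 and 11 UMIs.

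**Figure D4:**
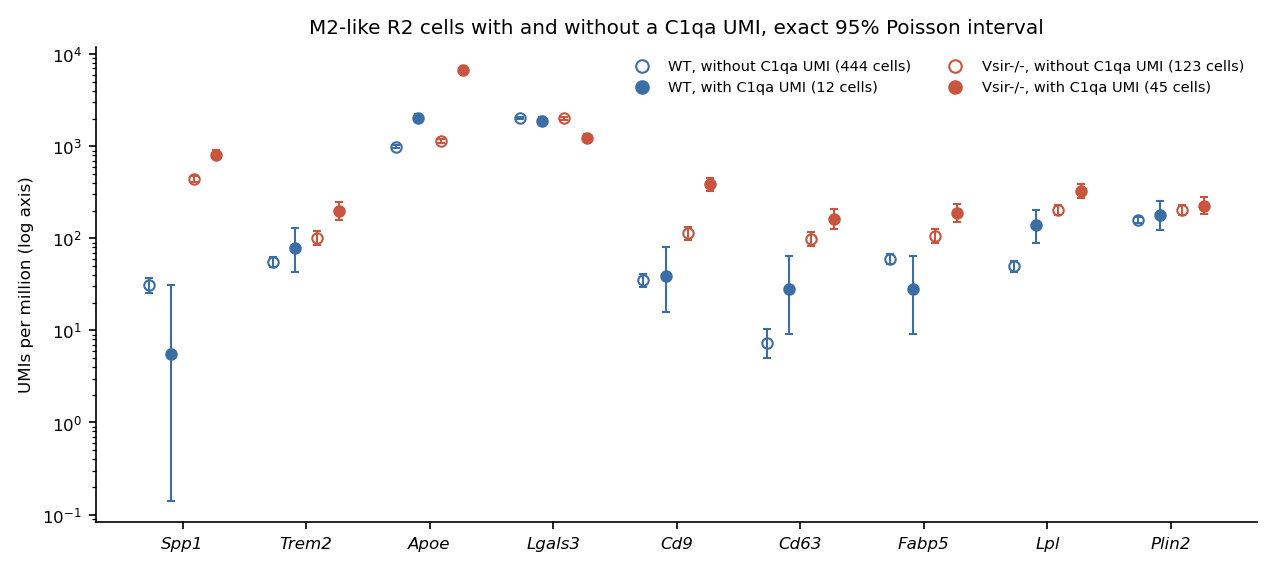
Level in CPM (log axis) of 9 genes in M2-like R2 cells with (filled) and without (open) a C1qa UMI, for WT (blue, 12 and 444 cells) and Vsir-/- (orange, 45 and 123 cells), with exact 95% Poisson intervals. Apoe of the cells without C1qa lies close together in both libraries (991 and 1137 CPM), while Cd9, Cd63, Lpl and Spp1 of these cells differ more than 3-fold.

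Of 14 other genes for lipoprotein uptake and lipid efflux, 12 passed in M2-like R2. Of these, 6 were at least 2-fold higher in Vsir-/- (8.11% of all genes were) and 1 lower, with a median log2 ratio of 1.07. The scavenger receptors Cd36 (7.74 and 61.5 CPM) and Olr1 (3.64 and 36.4 CPM), the efflux pump Abca1 (9.79 and 41.2 CPM) and the receptors for dying cells Axl (37.1 and 96.1 CPM) and Mertk (0.683 and 15.5 CPM) were higher, and these 5 were picked after their values were seen. Apoc2 had the largest ratio of the list in each cluster. None of the 5470 WT cells held an Apoc2 UMI and the names of the libraries differ, so no fold is given. The counts of higher genes and the medians of this list still include Apoc2 in each cluster. Apoc1 was the lowest in M2-like R2 (19.8 and 8.95 CPM, log2 ratio -1.11). In R1, 2 of 10 were higher (Apoc2 and Mertk), against 13.6% of all genes, and 1 was lower, with a median of 0.34. In Other R2, 3 of 10 were higher, against 6.71% of all genes, and none lower, with a median of 0.46. The 7 marker genes of R1 summed to 910 CPM in WT and 4828 CPM in Vsir-/- in M2-like R2. There 5 of the 7 were at least 2-fold higher (8.11% of all genes were), with a median log2 ratio of 2.26. What part cells like R1 had in the M2-like R2 values was not tested.

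Lgals3, which encodes the galactoside-binding lectin galectin-3, was the member that differed least in M2-like R2, at 2024 CPM in WT and 1833 CPM in Vsir-/- (log2 ratio -0.14, -0.20 to -0.08). It measured 259 and 410 CPM in R1 (0.66, 0.42 to 0.91) and 678 and 826 CPM in Other R2 (0.29, 0.14 to 0.43). M2-like R2 was the highest of the 3 clusters and R1 the lowest in both libraries. The lymphoid pool had 55.3 and 135 CPM.

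The tetraspanins Cd9 and Cd63, membrane proteins of the cell surface and of late endosomes, were not set apart from lymphoid cells in every macrophage cluster. Cd9 measured 79.2 and 164 CPM in R1 (log2 ratio 1.04, 0.62 to 1.5), 35.3 and 180 CPM in M2-like R2 (2.35, 2.07 to 2.64) and 406 and 591 CPM in Other R2 (0.54, 0.36 to 0.73). Its pooled lymphoid level was 74.5 and 116 CPM, and the highest lymphoid cluster reached 232 CPM in WT and 201 CPM in Vsir-/-, so that of the macrophage clusters Other R2 alone stood above all lymphoid clusters. A Vsir-/- R1 cell held 53 of the 262 Cd9 UMIs of its cluster.

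Cd63 measured 131 and 359 CPM in R1 (1.45, 1.13 to 1.79), 8.20 and 115 CPM in M2-like R2 (3.8, 3.29 to 4.37) and 15.6 and 113 CPM in Other R2 (2.82, 2.14 to 3.63). In lymphoid cells it went from 1.19 to 194 CPM (7.31, 6.69 to 8.08). In Vsir-/- both R2 clusters lay below the lymphoid pool and R1 above it, though below the highest lymphoid cluster, B, at 427 CPM. The next lymphoid cluster, non-EM-like CD8+ T, stood at 181 CPM, below R1. Cd63 made 46.4 to 133 UMIs per 1000 tubule UMIs in macrophages and 33.6 to 64.1 in lymphoid clusters, with B the highest of the latter. Neutrophils, at 95.9 and 364 CPM of Cd63 and 90.9 UMIs per 1000 tubule UMIs in Vsir-/-, stood between the R2 clusters and R1 on that ratio. Gpnmb, a membrane glycoprotein of lysosomes, was close to the detection limit, with 0 and 5 UMIs in R1, 5 and 12 in M2-like R2 and 0 and 0 in Other R2. Where none was counted, 3 UMIs would give 4.32 CPM in WT R1, 2.34 CPM in WT Other R2 and 3.88 CPM in Vsir-/- Other R2. Of the 5 Gpnmb UMIs in Vsir-/- R1, 4 lay in 1 cell.

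Fabp5, a cytosolic carrier of fatty acids, measured 14.4 and 94.3 CPM in R1 (log2 ratio 2.65, 1.79 to 3.8), 58.0 and 127 CPM in M2-like R2 (1.13, 0.85 to 1.39) and 47.6 and 89.3 CPM in Other R2 (0.91, 0.39 to 1.43). The R1 value rested on few cells, since 29 of 237 Vsir-/- cells had a Fabp5 UMI and 1 of them held 57 of the 151 UMIs. That cell was also the one with 4 Gpnmb UMIs, and it held 7 Trem2, 17 Plin2 and 363 Apoe UMIs. Without the top cell of each library the log2 ratio in R1 was 2.66. The lymphoid pool had 9.92 and 36.7 CPM. Neutrophils had 144 and 133 CPM, in both libraries above every macrophage cluster, though in Vsir-/- only just above M2-like R2 at 127 CPM.

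Lpl, the lipase that frees fatty acids from lipoproteins, differed by less than counting error in R1, with 416 CPM in WT and 408 CPM in Vsir-/- (-0.03, -0.23 to 0.18). It was higher in M2-like R2, at 53.7 and 233 CPM (2.12, 1.88 to 2.36), and in Other R2, at 111 and 251 CPM (1.18, 0.86 to 1.5). R1 was the highest cluster in both libraries, and the order of the R2 clusters in Vsir-/- was within counting error (-0.11, -0.36 to 0.15). The lymphoid pool went from 0.377 to 36.1 CPM, and its level scaled to the tubule list came to 5.6% to 8.16% of the macrophage levels in Vsir-/-. Among the 5 genes most like Lpl were Pla2g4a, Slc7a7, F11r and Cxcl16 (r 0.88 to 0.92).

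Plin2, the coat protein of lipid droplets, measured 92.1 and 140 CPM in R1 (0.60, 0.20 to 1.03), 161 and 211 CPM in M2-like R2 (0.39, 0.20 to 0.58) and 206 and 277 CPM in Other R2 (0.43, 0.16 to 0.69). It was below 2-fold in all 3 clusters, and Other R2 was the highest and R1 the lowest in each library. The lymphoid pool had 18.7 and 33.6 CPM. Of 14 other genes of lipid storage and use, 13 passed in R1 with 3 higher (Mgll, Fabp4 and Pltp), against 13.6% of all genes. In M2-like R2, 13 passed with 2 higher (Hilpda and Pltp), against 8.11% of all genes. In Other R2, 12 passed with 1 higher (Dgat2), close to the share of 6.71% of all genes. None was 2-fold lower in any of these clusters. Pltp, a transfer protein for phospholipids, measured 33.1 and 192 CPM in R1 and 45.5 and 164 CPM in M2-like R2, compared with 7.35 and 16.2 CPM in lymphoid cells. Mgll was counted 0 times in WT R1 and at 31.8 CPM in Vsir-/- R1, but its lymphoid level in Vsir-/- was 32.0 CPM. The Vsir-/- R1 level was 7.38-fold the level that 3 UMIs would give in WT R1, which is not a lower bound. The lowest genes were Soat1 in R1 (log2 ratio -0.40) and Lipe in both R2 clusters (-0.67 in M2-like and -0.42 in Other).

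Among 14 transcription factors of lysosomes and lipid metabolism, Nr1h3, which encodes the sterol sensor LXRα, had the highest ratio in all 3 clusters. It measured 2.88 and 18.1 CPM in R1 (2.36, 0.67 to 5.77), 7.74 and 37.6 CPM in M2-like R2 (2.27, 1.66 to 2.93) and 25.8 and 66.0 CPM in Other R2 (1.35, 0.70 to 2.04), and 0.126 and 2.80 CPM in lymphoid cells. Altogether 2 of 13 factors were higher in R1 (13.6% of all genes were), 3 of 13 in M2-like R2 (8.11% of all genes) and 2 of 11 in Other R2 (6.71% of all genes), so the R1 share was close to that of all genes. Pparg, the lowest in R1 and Other R2, had log2 ratios of -0.72 and -1.0, short of 2-fold. Of 15 lysosomal genes, 2 were higher in R1 (Ctsd and Ctsl), 1 in M2-like R2 (Ctsd) and 0 in Other R2, with medians of 0.30, 0.17 and 0.29. These counts were at or below the shares of all genes just given. Ctsd, a protease of the lysosome, measured 104 and 270 CPM in R1 and 192 and 429 CPM in M2-like R2.

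Members were also counted together in single cells, where a low level at this depth makes joint detection rare. After thinning to 1000 UMIs, at least 3 of Spp1, Trem2, Gpnmb, Fabp5, Lpl and Plin2 were found in 0 of 109 R1, 3 of 409 M2-like R2 and 1 of 180 Other R2 cells in WT, and in 8 of 212, 9 of 159 and 3 of 127 in Vsir-/-. No thinned lymphoid cell held 3. Before thinning, the shares were 6.03%, 17.5% and 5.85% in WT and 47.3%, 60.1% and 42.7% in Vsir-/-, with Spp1 alone present in 93.1% to 97.6% of macrophages and in 93.1% of lymphoid cells of that library. Over thinned cells of a cluster the median Spearman's rho between pairs of members lay between -0.02 and 0.08, and the highest was 0.48, between Cd9 and Cd63 in the 159 cells of Vsir-/- M2-like R2, which share depth.

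Cells with a Trem2 UMI were compared with the other cells of their cluster. In Vsir-/- M2-like R2, the 71 cells with Trem2 had 3319 CPM of Apoe and the 97 without had 1710 CPM (log2 ratio 0.96, 0.86 to 1.05), and Cd9 was at 273 and 90.6 CPM (1.59, 1.21 to 1.98). C1qa followed, at 526 and 234 CPM. In WT M2-like R2, the 139 cells with Trem2 had 1208 CPM of Apoe and the other 317 had 911 CPM (0.41, 0.32 to 0.49), while Cd9 was lower in the cells with Trem2, at 21.6 and 44.8 CPM (-1.04, -1.62 to -0.52). Cells with a Trem2 UMI were deeper, with medians of 11345 and 9486 UMIs in Vsir-/- and 11869 and 8245 UMIs in WT. Spp1 differed by less than counting error between the kinds of Vsir-/- M2-like R2 cells, at 548 and 513 CPM (0.10, -0.10 to 0.29), and so did Fabp5, at 126 and 127 CPM (-0.01, -0.41 to 0.39). In WT M2-like R2, Spp1 was lower in the cells with Trem2 (-1.54, -2.25 to -0.92), with 93 of its 106 UMIs in the other cells held by 1 cell.

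In Vsir-/- R1 the pattern of Fabp5 was another. The 71 cells with Trem2 had 183 CPM of Fabp5 and the 166 without had 29.3 CPM (2.62, 2.03 to 3.30), with the 57 UMIs of 1 cell among the former. Cd9 was also higher with Trem2, at 230 and 115 CPM (1.0, 0.63 to 1.37), but 1 cell held 53 of the 156 Cd9 UMIs of the cells with Trem2. Over thinned Vsir-/- cells, Spearman's rho of Trem2 and Cd9 was -0.11 in R1 and 0.02 in M2-like R2. Apoe was higher with Trem2 in R1, at 13116 and 9661 CPM (0.44, 0.40 to 0.48). Spp1 was lower, at 446 and 607 CPM (-0.44, -0.65 to -0.24), and Lpl measured 361 and 442 CPM (-0.29, -0.53 to -0.06). Median depth was 7496 and 5189 UMIs. Only 8 cells of WT R1 had a Trem2 UMI.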

How the data were processed

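Droplet-based 3' libraries (1 WT, 1 Vsir-/-) were analysed. The authors deposited UMI counts per gene and cell, with a table naming each cell's library and cluster and its mitochondrial percent, also as deposited by the authors (at most 10). The submitters' processing notes name Cell Ranger 3.1.0, Seurat 3.2.3, R 4.0.3 and mm9. The authors kept genes found in 5 or more cells, then normalized and clustered the cells on their transcripts, so differences between clusters are descriptions. Coordinates in the layout of the clusters were not used. In WT 140 gene names were found in 1 to 4 cells and in Vsir-/- 2332, so a 0 in WT can be a gene that was dropped. No doublet caller was applied, and 5 cell barcodes occurred in both libraries.

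Counts were summed by cluster and library and divided by their total. Log2 ratios added 0.5 UMI to each sum and needed 20 UMIs in both sums together. Intervals were exact Poisson, Clopper-Pearson or conditional binomial at 95%. "Higher" between libraries meant 2-fold and above lymphoid cells 4-fold. Named genes were the members, the highest and lowest of each wider list, and for 4 members (Spp1, Trem2, Gpnmb and Lpl) the 5 genes of highest Pearson's r of log2(CPM + 10) among genes with at least 200 UMIs, and some genes that this rule names are not reported here. The members and lists were chosen with earlier results of these data known. Python 3.11.15 with numpy 2.4.6, scipy 1.17.1 and pandas 2.3.3 was used, and the ratio and its interval were tested on simulated data. Alternatives covered the cells kept, depth, weighting, denominator, scaling and background.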

Additional observations from a re-analysis of the deposited data

Results flagged for a closer look

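Apoe had log2 ratios of opposite sign in different macrophage clusters. Its log2 ratio of Vsir-/- over WT was above 0 in R1 and M2-like R2 and below 0 in Other R2, with every interval off 0, and the ratio in Other R2 was exceeded by 1.14 in R1 and by 1.44 in M2-like R2. Lgals3 was above 0 in R1 and Other R2 and below 0 in M2-like R2, which R1 exceeded by 0.80 and Other R2 by 0.43 on the log2 scale. These signs were not kept under every alternative, since the ratio of Apoe in Other R2 ran from -0.44 to 1.81, that of Lgals3 in M2-like R2 from -0.34 to 0.003 and that of Lgals3 in Other R2 from -0.16 to 0.87. With 1 library a genotype these differences between clusters were not tested.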

How the results depend on the processing

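With 5, 7 and 3 members at least 2-fold higher in R1, M2-like R2 and Other R2, subtracting the lymphoid level left 3, 4 and 0 (16%, 58.5% and 13.5% of all genes) with 1, 2 and 1 lower, and subtracting the level of lineage-positive lymphoid cells, an alternative chosen after seeing the data, left 3, 5 and 1 (17.1%, 59% and 14.4% of all genes) with 1, 2 and 1 lower. In M2-like R2, with 4392986 UMIs in WT and 1675190 in Vsir-/-, a gene set to 0 in both libraries counted as 2-fold higher. The shares of 58.5% and 59% include such genes, so the counts there cannot be read against them. In R1, with 694926 and 1601175 UMIs, such a gene counted as 2-fold lower, as Spp1 did. Thinning left 1 of 6 in Other R2 (6.81% of all genes). Without cells holding a T cell receptor complex or Cd79a UMI, 4 of 9 were left in R1 (18.2% of all genes). M2-like R2 then had 5 of 9 (8.84%), without Trem2 and Fabp5, and Other R2 had 2 of 8 (8.66%). In that setting 17 of the 26 ratios moved outside their intervals. The C1qa-negative cells of M2-like R2, also chosen after seeing the data, left 4 of 9 (6.83% of all genes). The background scaled by all 30 tubule genes gave 5 in Other R2, but 60.5% of all genes passed there too and 94.1% in M2-like R2, so that setting says nothing about the members. Of the members at least 4-fold above lymphoid cells, 7 in WT and 5 in Vsir-/-, neutrophils as background left 3 in each (15.7% and 17.3% of all genes), and the B cluster alone gave 8 of 9 in WT (11.7%) and 3 of 9 in Vsir-/- (5.79%). The Spp1 log2 ratio turned to -1.20 in R1 under all 4 subtractions (plain, lineage-positive, and scaled with and without Napsa and Ass1), where both sums came to 0 and the value reflects the totals alone, and to -6.01 in M2-like R2 under both unscaled ones. Cd63 turned to -4.58 (plain) and -4.57 (lineage-positive) in M2-like R2 and -4.52 in Other R2 under the unscaled subtractions, and to -3.93 and -2.22 in Other R2 under the scaled ones. The ratios of Trem2 in R1 (1.77 to 3.98), Fabp5 in R1 (1.52 to 6.64), Cd9 in M2-like R2 (1.69 to 10.2) and Lpl in M2-like R2 (1.89 to 2.64) stayed past 2-fold under the alternatives run. For 2 of these, subtraction set the WT sum to 0, so their upper ends rest on the 0.5 UMI added. WT Cd9 in M2-like R2 (35.3 CPM) lay below the plain (74.5 CPM) and the scaled (87.6 CPM) lymphoid level. WT Fabp5 in R1 (14.4 CPM) lay below the scaled one (45.5 CPM). Of 26 ratios, 16 kept their sign. They include Spp1 in Other R2, whose lowest value of 0.73 came from sums of 0 in both libraries and reflects the totals alone. No paired analysis was possible because each genotype had 1 library. Gpnmb, with at most 12 UMIs in a macrophage cluster, and Trem2 in Other R2, with 12 and 3, were too few for a ratio of use.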

Other observations

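The genes most like Gpnmb over the 29 sums were Gas7, Sulf2, Fam207a, Klrb1b and Chmp1a (r 0.63 to 0.76), from 70 Gpnmb UMIs in all. In the 25 basophils of WT, Cd63 stood at 1382 CPM and Cd9 at 1341 CPM, above every macrophage cluster of either library. Among the 218 cells that lacked Ptprc and T cell receptor complex UMIs yet were named non-EM-like CD4+ T in Vsir-/-, Spp1 made 337 UMIs and Lpl 6.70 UMIs per 1000 UMIs of the tubule list.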
